A study of Mus musculus with 8 samples.

Results

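The vascular endothelial growth factor (VEGF) family was examined in 4 mouse mammary tumour cell lines grown in culture. The 10 genes considered were the ligand genes Vegfa, Vegfb, Vegfc, Vegfd and Pgf, the receptor genes Flt1, Kdr and Flt4, and the co-receptor genes Nrp1 and Nrp2. They were chosen by name, and all 10 were found by Entrez identifier among the 27179 genes of the count table.

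RNA-seq libraries had been made from 2 biological replicates each of 4T1.2, 4T1, 66cl4 and 67NR, which gave 8 libraries in 4 lines. The labels spell 66cl4 with a digit 1 in place of the letter l. All were BALB/c-derived mammary tumour lines kept in serum-containing medium, with no treatment or engineered allele named in the labels. The study sets 4T1 and 4T1.2 against 66cl4 and 67NR, which it describes as less metastatic. It calls 66cl4 and 67NR siblings of 4T1 and 4T1.2, and the 4 lines isogenic, so the lines are related across the pairs too. Neither side of that comparison is a set of independent tumours. Whether the replicates of a line were separate cultures is not stated beyond the word biological, so the p-values below measure the spread between these libraries, which may be technical in part. Library totals ran from 37159840 to 66269681 counts. The replicates of a line correlated at Pearson's r of 0.995 to 0.996 across genes, and in every line they differed by more than sampling noise, with a chi-square per degree of freedom of 10.3 to 75.4.

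VEGF ligands are secreted dimers that act on receptor tyrosine kinases, best known from endothelial cells. VEGF-A, the main angiogenic ligand, binds VEGFR1 (encoded by Flt1) and VEGFR2 (encoded by Kdr), and VEGFR2 carries most of the mitogenic signal. VEGF-B and placental growth factor (encoded by Pgf) bind VEGFR1, which binds VEGF-A tightly but signals weakly and also exists as a secreted decoy. VEGF-C and VEGF-D, which are made as precursors and cut by proteases, act through VEGFR3 (encoded by Flt4) in lymphatic endothelium. Neuropilin 1 and neuropilin 2, encoded by Nrp1 and Nrp2, are co-receptors that also bind class 3 semaphorins. Gene-level counts cannot separate the splice forms of Vegfa, nor secreted from membrane-bound forms of Flt1 and the neuropilins.

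The regions before an annotated start of 4 of the genes are shown here, as 250 bases before a RefSeq transcript start in GRCm38.p6, which is the mm10 build of the counts. Flt1, Pgf and Vegfd are shown because they differed most between the pairs of lines, and Kdr because this other VEGF-A receptor gene was almost without counts in all of them. The RefSeq spans of Flt1, Kdr and Pgf reach beyond these starts, so the windows lie inside the annotated genes, and distances below are to the start used and not to the end of the gene span. Capitals mark matches, on either strand, to the cyclic AMP response element (CRE) TGACGTCA, the GC box GGGCGG or the TATA motif TATAAA. Flt1 lies at chr5:147726012-147726261, minus strand. Kdr lies at chr5:75978456-75978705, minus strand. Pgf, at the first of 2 starts listed, lies at chr12:85177314-85177563, minus strand. Vegfd lies at chrX:164373272-164373521, plus strand.
Flt1: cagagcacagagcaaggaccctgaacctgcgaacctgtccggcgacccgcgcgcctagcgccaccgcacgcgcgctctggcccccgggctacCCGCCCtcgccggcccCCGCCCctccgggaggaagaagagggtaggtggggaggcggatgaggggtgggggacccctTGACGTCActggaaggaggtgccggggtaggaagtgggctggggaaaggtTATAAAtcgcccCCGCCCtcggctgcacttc
Kdr: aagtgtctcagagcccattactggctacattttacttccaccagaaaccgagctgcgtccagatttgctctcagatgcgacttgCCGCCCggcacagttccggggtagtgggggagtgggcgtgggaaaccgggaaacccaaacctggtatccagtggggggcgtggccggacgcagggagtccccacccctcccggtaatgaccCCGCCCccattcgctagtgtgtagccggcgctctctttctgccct
Pgf: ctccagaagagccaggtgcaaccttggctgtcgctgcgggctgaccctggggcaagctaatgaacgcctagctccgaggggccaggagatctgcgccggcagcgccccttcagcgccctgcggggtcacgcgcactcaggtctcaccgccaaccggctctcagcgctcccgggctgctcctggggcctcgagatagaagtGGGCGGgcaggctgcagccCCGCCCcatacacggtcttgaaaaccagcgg
Vegfd: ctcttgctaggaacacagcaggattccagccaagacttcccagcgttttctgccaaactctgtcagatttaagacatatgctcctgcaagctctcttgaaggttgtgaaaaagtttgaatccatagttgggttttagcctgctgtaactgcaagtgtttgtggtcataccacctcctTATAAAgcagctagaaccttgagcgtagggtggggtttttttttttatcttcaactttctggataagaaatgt

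The Flt1 window held 1 CRE match, 81 bases before the start used, 1 TATA match 31 bases before it and 3 GC boxes. Of all 32851 RefSeq windows of this length, 1.5% held the CRE, 12.4% the TATA motif and 32.7% a GC box. The Kdr window and the Pgf window each held 2 GC boxes and neither of the other motifs. In the Vegfd window the only match was a TATA motif 73 bases before the start. The windows also differed in base composition. Flt1 had 23 CpG dinucleotides and a GC content of 70.4%, Pgf 20 and 68.4%, Kdr 16 and 61.6%, and Vegfd 2 and 42.4%, beside a median of 6 CpG over all windows. Neither the AP-1 motif TGANTCA, found in 6.7% of all windows, nor the hypoxia response core ACGTG, found in 16.6%, was present in these 4 windows, and among the windows of all 10 genes ACGTG was found once, at the second of 2 Vegfa starts. These matches describe letters in a window and not occupied sites.

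Levels are given as CPM (counts scaled by TMM library size) when 1 gene is compared across libraries, and as RPKM (CPM per kilobase of the gene's counted length) when genes are compared with each other. Of the 10 genes, 8 passed the filter on low counts and were tested, while Kdr and Flt4 were not. In edgeR's quasi-likelihood F-test with Benjamini-Hochberg adjustment and a threshold of 0.05, all 8 differed among the 4 lines, beside 84.8% of all 13912 genes tested. Between 4T1/4T1.2 and 66cl4/67NR, 7 of the 8 differed. Flt1 and Pgf were higher in 4T1/4T1.2, where 38.1% of all genes tested were higher. Vegfa, Vegfb, Vegfd, Nrp1 and Nrp2 were lower, where 38.6% of all genes were lower. The median absolute log2 fold change was 0.80 over the 8 genes and 0.58 over all genes tested. With so many genes differing between these lines, being called was common, and the sizes below carry more information than the calls.

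**Figure D1:**
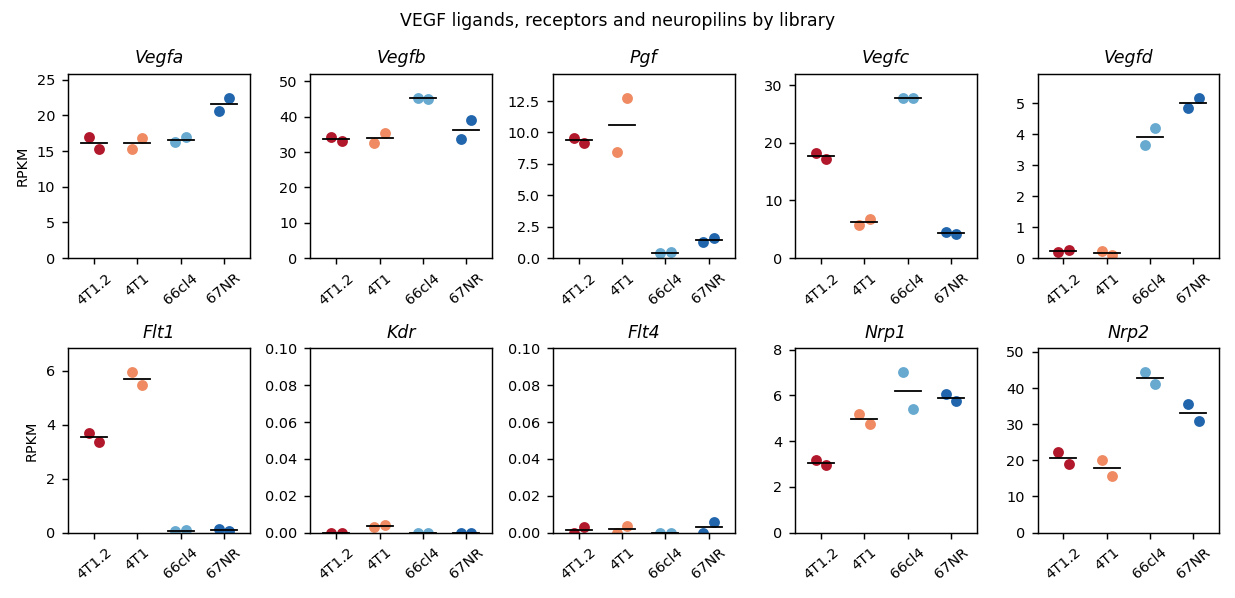
Level of each of the 10 genes in RPKM (y axis, linear, own scale in each panel) by line (x axis). Points are the 8 libraries and bars the mean of the 2 replicates of a line. Flt1 and Pgf are high in 4T1.2 and 4T1, Vegfd is high in 66cl4 and 67NR, Vegfc is high in 4T1.2 and 66cl4, and the Kdr and Flt4 panels are drawn on a scale near 0.

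Among the receptors, Flt1 RNA was well detected in 4T1.2 and 4T1 (means of 3.545 and 5.718 RPKM) and almost absent from 66cl4 and 67NR. The 4T1.2 libraries held 23.3 and 21.2 CPM of Flt1, the 4T1 libraries 37.3 and 34.5, the 66cl4 libraries 0.486 and 0.491, and the 67NR libraries 0.764 and 0.405. The lowest 4T1.2 or 4T1 library had 1202 counts and the highest 66cl4 or 67NR library 28, so the pairs of lines did not come near each other. Flt1 was 54.4-fold higher in 4T1/4T1.2 (log2 fold change 5.76, SE 0.15, edgeR adjusted p = 3.26e-10). Of all genes tested, 92.9% had a smaller absolute log2 fold change in that comparison. Within the high pair, the 4T1.2 level of Flt1 was 1.61-fold below that of 4T1 (log2 fold change -0.69, SE 0.15, edgeR adjusted p = 0.00931). That difference did not pass without 4T1.2 replicate 2 (log2 fold change -0.63, edgeR adjusted p = 0.080). Between 66cl4 and 67NR the difference of -0.17 on the log2 scale had a 95% interval from -0.87 to 0.54 and did not pass (edgeR adjusted p = 0.702), so the order of the lines was 4T1, 4T1.2 and then 67NR and 66cl4, whose difference was within its error.

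Kdr, the receptor through which VEGF-A mainly signals, had 1 count in each 4T1 library and 0 counts in the other 6 libraries. Flt4, the VEGF-C and VEGF-D receptor, had 2 counts in 67NR replicate 2, 1 in 4T1.2 replicate 2, 1 in 4T1 replicate 2 and 0 in the rest. Neither gene had more than 2 counts in any library. A level of 3 counts, the most that a count of 0 allows, corresponded to 0.0529 CPM in 4T1.2 and 0.0667 CPM in 66cl4 as the mean over a line's libraries, a limit that covers counting error only. No differences between lines were detectable for these genes at this depth. Per length, Flt1 was at least 383-fold and at least 348-fold higher than Kdr in the 4T1.2 libraries, with Kdr set at 3 counts per library.

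Flt1 and Kdr are commonly expressed by endothelial cells, so a fixed list of 10 endothelial genes was read beside them. Their summed level was 2.08 to 2.41 CPM in 4T1.2, 9.87 to 10.3 CPM in 4T1, 0.692 to 0.774 CPM in 66cl4 and 0.519 to 0.908 CPM in 67NR. Of the 10, 5 passed the filter on low counts, and 4 of these (Pecam1, Cdh5, Tie1 and Robo4) were higher in 4T1/4T1.2 by edgeR's test. Pecam1 and Robo4 had at most 18 counts in a library. For these and the other marker genes below, the shares over all genes tested were 38.1% higher and 38.6% lower. Most of the 4T1 sum came from Tie1, an endothelial receptor tyrosine kinase, at 6.66 ± 0.842 CPM (SD, n = 2), and from Cdh5, which encodes VE-cadherin, at 2.64 ± 0.990 CPM. The other defining genes stayed near 0. The highest line mean of Pecam1 was 0.266 CPM, Cldn5 and Erg had at most 1 count in a library, and Emcn had no counts outside 66cl4. Within 4T1.2, the Flt1 level of 22.3 ± 1.48 CPM stood beside a Tie1 level of 0.714 ± 0.238 CPM. The gap was smaller within 4T1, where Flt1 stood at 35.9 ± 2.00 CPM beside Tie1 at 6.66 ± 0.842 CPM. The part of these genes in the Flt1 difference was not tested. In bulk libraries, fewer cells of a kind cannot be told apart from less RNA per cell. Of the lymphatic markers, Prox1 and Lyve1 had at most 2 counts in a library, whereas Pdpn, which many tumour cells also express, reached 166 ± 1.62 CPM in 66cl4 and 100 ± 2.69 CPM in 67NR and stayed under 0.1 CPM in 4T1.2 and 4T1. Of the 7 leucocyte genes, Ptprc, which encodes CD45, had at most 2 counts, Cd3e had 0, and Cd68 was the highest at 1.80 to 4.94 CPM by line. Cd68 and Itgam, the only leucocyte genes tested, were both higher in 4T1/4T1.2.

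**Figure D2:**
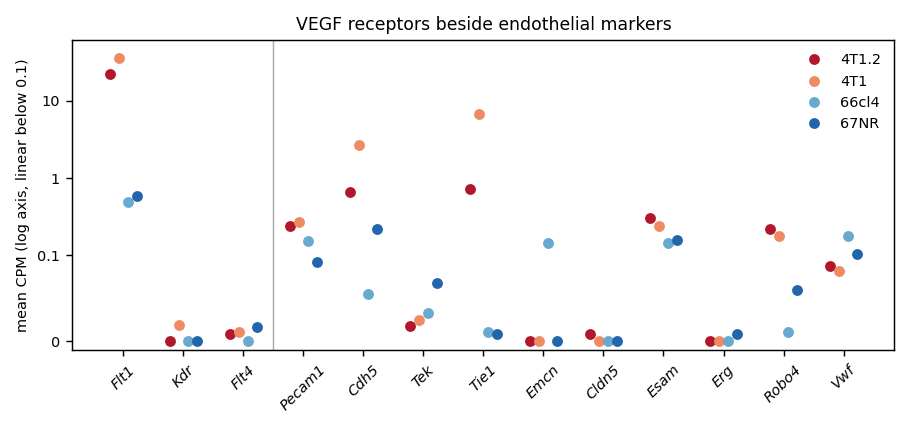
Mean CPM of the 3 VEGF receptor genes (left of the line) and the 10 endothelial genes (right), with 1 point for each line and a y axis that is logarithmic above 0.1 CPM and linear below. Flt1 lies above every endothelial gene in 4T1.2 and 4T1, Tie1 and Cdh5 rise above 1 CPM in 4T1, and Kdr and Flt4 lie near 0.

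A split between the same pairs of lines was present in some markers of epithelial and mesenchymal state. Epcam, an epithelial adhesion gene, measured 42.8 ± 5.46 CPM in 4T1 and 13.99 ± 0.392 CPM in 4T1.2, with 0 counts in 66cl4 and 0.0137 CPM in 67NR. The epithelial cadherin gene Cdh1 reached 38.5 CPM in 4T1 and 11.4 CPM in 4T1.2, and no more than 0.0997 CPM as the mean of either other line. Of the 6 epithelial genes, 5 were tested and 5 were higher in 4T1/4T1.2. Krt8, an epithelial keratin, was found in every line, from 496 CPM in 67NR to 1433 CPM in 4T1. Krt18, another keratin gene of the list, also separated 66cl4 from 67NR. It stood at 583 CPM in 4T1.2, 1023 CPM in 4T1, 114 CPM in 66cl4 and 0.977 CPM in 67NR. Of the 4 mesenchymal genes, Cdh2, Fn1 and Zeb1 were lower in 4T1/4T1.2 and Vim was higher. Cdh2 stood at 94.2 CPM in 66cl4 and 81.9 CPM in 67NR and had almost no counts in the other lines. Epcam, Cdh1, Cdh2 and Zeb1 split by the same pairs of lines as Flt1, Pgf and Vegfd. Krt8, Vim and Fn1 were found in every line and differed less, with log2 fold changes of 1.13, 1.16 and -1.22. The part of any of these marker genes in the Flt1, Pgf and Vegfd differences was not tested.

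Among the ligands, Pgf rose and Vegfd fell in 4T1/4T1.2 relative to 66cl4/67NR, by 12.4-fold and 21.8-fold. Pgf, which encodes the VEGFR1 ligand placental growth factor, measured 15.01 and 14.4 CPM in 4T1.2, 13.3 and 19.99 in 4T1, 2.02 and 2.497 in 67NR, and 0.597 and 0.782 in 66cl4. Each 4T1.2 and 4T1 library lay above each 66cl4 and 67NR library, and the 66cl4 libraries held only 27 and 35 counts. The log2 fold change between the pairs of lines was 3.64 (SE 0.17, edgeR adjusted p = 2.29e-08). The 4T1 replicates were the furthest apart, and 4T1.2 and 4T1 differed by -0.18 on the log2 scale with a 95% interval from -0.59 to 0.24 (edgeR adjusted p = 0.579). Pgf was lower in 66cl4 than in 67NR (log2 fold change -1.73, SE 0.29, edgeR adjusted p = 0.000934), which put 67NR between 66cl4 and the high lines.

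Vegfd, a ligand for VEGFR3, had the opposite pattern. It measured 0.388 and 0.477 CPM in 4T1.2, 0.426 and 0.216 in 4T1, 9.12 and 9.70 in 67NR, and 6.88 and 7.86 in 66cl4. No library of 4T1.2 or 4T1 had more than 27 counts, and no library of 66cl4 or 67NR had fewer than 311. The log2 fold change of 4T1/4T1.2 relative to 66cl4/67NR was -4.45 (SE 0.17, edgeR adjusted p = 5.15e-09). The difference of 4T1.2 from 4T1 (0.38, 95% interval -0.38 to 1.13) did not pass the threshold, nor did that of 66cl4 from 67NR (-0.35, 95% interval -0.75 to 0.04), at edgeR adjusted p of 0.499 and 0.129. The second passed without 4T1 replicate 2 (log2 fold change -0.37, edgeR adjusted p = 0.0486).

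Vegfc, the other ligand for VEGFR3, did not follow the split between the pairs of lines and separated the lines within each pair. It measured 34.3 and 32.4 CPM in 4T1.2, 10.9 and 12.7 in 4T1, 8.41 and 7.98 in 67NR, and 52.1 and 52.2 in 66cl4. The replicates lay close together in every line, and no 2 lines overlapped. Vegfc was 2.83-fold higher in 4T1.2 than in 4T1 (log2 fold change 1.5, SE 0.11, edgeR adjusted p = 2.62e-05) and 6.37-fold higher in 66cl4 than in 67NR (2.67, SE 0.11, edgeR adjusted p = 2.18e-07). The order was therefore 66cl4, 4T1.2, 4T1 and 67NR, and each neighbour in it differed. The nearest neighbours, 4T1 and 67NR, differed by 0.53 on the log2 scale (SE 0.11, edgeR adjusted p = 0.00201), and 4T1.2 and 66cl4 by -0.64 (SE 0.10, edgeR adjusted p = 0.000332). Averaged over the pairs the difference was -0.06, with a 95% interval from -0.23 to 0.11 (edgeR adjusted p = 0.491).

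Vegfa and Vegfb varied least. Vegfa, the gene of the main angiogenic ligand, measured 70.8 and 63.6 CPM in 4T1.2, 64.1 and 70.4 in 4T1, 86.2 and 93.5 in 67NR, and 67.7 and 70.5 in 66cl4. The 4T1.2, 4T1 and 66cl4 libraries overlapped, and 67NR stood above them. Against 67NR, Vegfa was lower by 0.42 on the log2 scale in 4T1.2 (a log2 fold change of -0.42, SE 0.10, edgeR adjusted p = 0.00327), by the same amount in 4T1 (edgeR adjusted p = 0.00334), and changed by -0.38 in 66cl4 (SE 0.10, edgeR adjusted p = 0.0102). The difference between the pairs of lines, at -0.23 (SE 0.07, edgeR adjusted p = 0.011), did not pass without 4T1.2 replicate 2 (edgeR adjusted p = 0.0519) or without 67NR replicate 2. The difference between 66cl4 and 67NR did not pass without 66cl4 replicate 1 (edgeR adjusted p = 0.0597) or without 67NR replicate 2 (edgeR adjusted p = 0.0944).

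Vegfb, which encodes a VEGFR1 ligand, measured 44.1 and 42.5 CPM in 4T1.2, 41.8 and 45.3 in 4T1, 43.0 and 50.2 in 67NR, and 58.0 and 57.8 in 66cl4. Here 66cl4 stood above the other lines, which overlapped. It exceeded 4T1.2 and 4T1 (log2 fold changes of 4T1.2 and 4T1 against 66cl4 of -0.42 and -0.41, SE 0.10, edgeR adjusted p = 0.00387 and 0.00424). Its excess over 67NR was 0.31 (SE 0.10, edgeR adjusted p = 0.0287) and passed under some settings only, since the adjusted p was 0.222 without 67NR replicate 1 and between 0.0554 and 0.0944 without either 4T1.2 or either 66cl4 replicate. Between the pairs of lines Vegfb differed by -0.26 (SE 0.07, edgeR adjusted p = 0.00692). Against 67NR alone, 4T1.2 and 4T1 differed by -0.11 and -0.1 and did not pass (edgeR adjusted p = 0.357 and 0.395).

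Per length, Vegfb was the most abundant ligand RNA in every line, and the lines differed in what made up the rest. Of the RPKM summed over the 5 ligand genes, Vegfb accounted for 52.9% ± 1.53 (SD, n = 2) in 67NR, 50.7% ± 2.14 in 4T1, 48.1% ± 0.581 in 66cl4 and 43.8% ± 0.611 in 4T1.2. Pgf accounted for 12.2% ± 0.117 in 4T1.2 and 15.7% ± 2.95 in 4T1, but for 0.468% ± 0.0846 in 66cl4 and 2.09% ± 0.147 in 67NR. The share of Vegfd was 7.31% ± 0.264 in 67NR, 4.19% ± 0.359 in 66cl4, 0.300% ± 0.0551 in 4T1.2 and 0.262% ± 0.144 in 4T1. Vegfc RNA made up 23.0% and 29.6% of the sum in 4T1.2 and 66cl4 and 9.34% and 6.37% in 4T1 and 67NR. As a ratio of RPKM within a library, Vegfc exceeded Vegfa in both 4T1.2 libraries (1.08 and 1.13) and both 66cl4 libraries (1.71 and 1.64) and lay below it in 4T1 (0.377 and 0.401) and 67NR (0.217 and 0.189). The ratio of Vegfc to Vegfd was lowest in 67NR, at 0.920 and 0.821, where the VEGFR3 ligand RNAs were close to equal, and ranged from 25.5 to 88.2 over the 4T1 and 4T1.2 libraries. Shares of a sum are not independent of each other, so these values are a description.

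**Figure D3:**
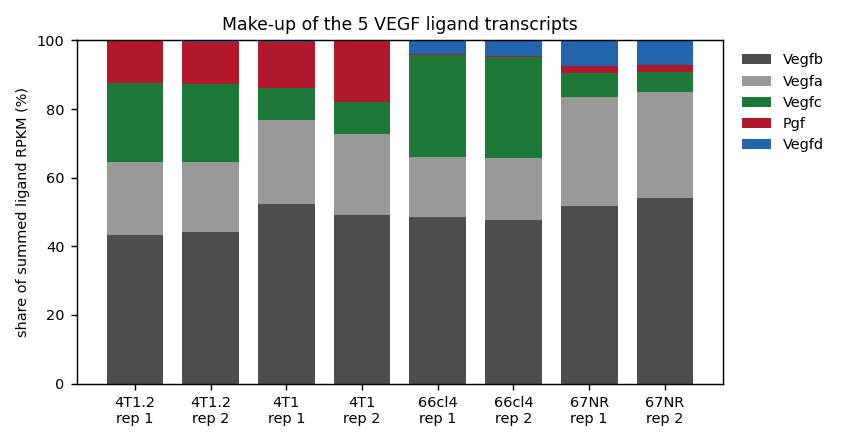
Share of each ligand gene in the RPKM summed over the 5 VEGF ligand genes (y axis, %), with 1 stacked bar for each of the 8 libraries. The Pgf band is wide in the 4T1.2 and 4T1 bars, the Vegfd band is visible only in the 66cl4 and 67NR bars, and the Vegfc band is wider in 4T1.2 and 66cl4 than in 4T1 and 67NR.

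Both neuropilin genes were expressed in all lines and were lower in 4T1/4T1.2. Nrp2, whose product binds VEGF-C and some semaphorins of class 3, measured 181 and 154 CPM in 4T1.2, 163 and 127 in 4T1, 288 and 250 in 67NR, and 360 and 334 in 66cl4. Every 66cl4 and 67NR library lay above every 4T1.2 and 4T1 library. Nrp2 was 1.96-fold lower in 4T1/4T1.2 (log2 fold change -0.97, SE 0.10, edgeR adjusted p = 8.02e-06). The difference between 66cl4 and 67NR, 0.37 (SE 0.13), lay at the threshold (edgeR adjusted p = 0.0504), and 4T1.2 and 4T1 differed by 0.21 with a 95% interval from -0.09 to 0.51 (edgeR adjusted p = 0.330). Leaving out 4T1 replicate 1 brought both under the threshold, at log2 fold changes of 0.37 and 0.40 (edgeR adjusted p = 0.0116 and 0.0439), and leaving out 4T1 replicate 2 brought the first under it (edgeR adjusted p = 0.0166).

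Nrp1, whose product is a co-receptor for VEGF-A and the semaphorin 3A receptor, was set apart by 4T1.2. It measured 18.8 and 17.5 CPM in 4T1.2, 30.8 and 28.2 in 4T1, 35.8 and 34.0 in 67NR, and 41.5 and 32.1 in 66cl4. The 4T1.2 libraries were the lowest and the 66cl4 replicates were the furthest apart. The 4T1.2 level of Nrp1 was below that of 4T1 (log2 fold change -0.70, SE 0.13, edgeR adjusted p = 0.00463), 66cl4 (-1.02, SE 0.13, edgeR adjusted p = 6.72e-05) and 67NR (-0.94, SE 0.13, edgeR adjusted p = 0.000119). The order among the other lines was less settled. The difference of -0.32 between 4T1 and 66cl4 passed narrowly (edgeR adjusted p = 0.046) and did not pass under 11 of 17 other settings, with a highest adjusted p of 0.401 without 66cl4 replicate 1, where it was -0.12. Between 4T1 and 67NR the difference was -0.24, with a 95% interval from -0.53 to 0.04 (edgeR adjusted p = 0.119), and between 66cl4 and 67NR it was 0.08, with a 95% interval from -0.21 to 0.36 (edgeR adjusted p = 0.649). The comparison of the pairs of lines gave -0.63 (SE 0.09, edgeR adjusted p = 0.000122).

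Per length, Nrp2 RNA exceeded Nrp1 RNA in all 8 libraries, by a ratio of RPKM of 7.04 and 6.41 in 4T1.2, 3.86 and 3.27 in 4T1, 5.88 and 5.37 in 67NR, and 6.33 and 7.59 in 66cl4. The 4T1 ratios were the lowest. Flt1 and Nrp1, both of which were less abundant in 4T1.2 than in 4T1, kept a ratio of 1.14 to 1.17 in the 4 libraries of those lines, while the ratio was 0.0111 to 0.0202 in 66cl4 and 67NR.

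**Figure D4:**
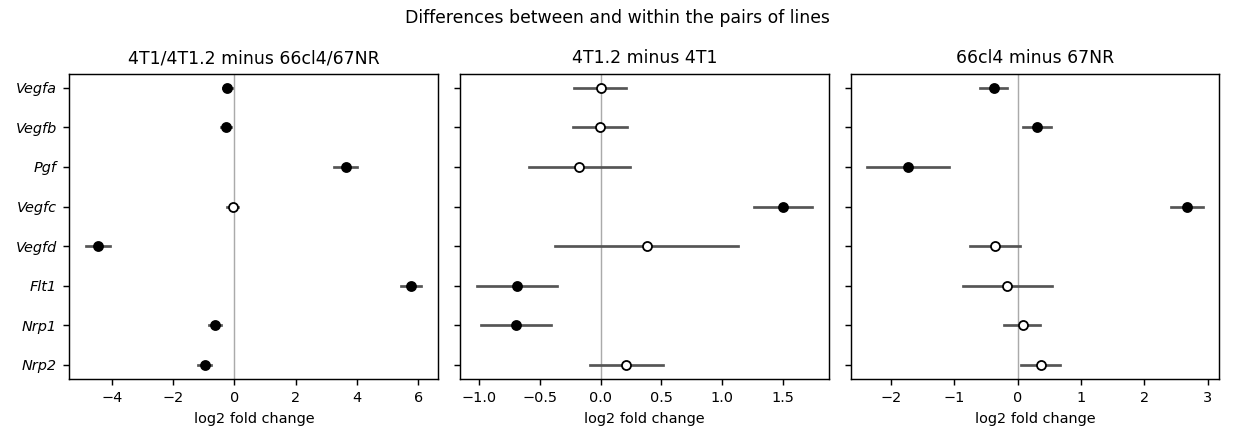
Fitted log2 fold changes (x axis, own scale in each panel) of the 8 tested genes (y axis) for the pairs of lines, 4T1.2 minus 4T1, and 66cl4 minus 67NR. Bars are 95% intervals, filled points passed an adjusted p of 0.05 in edgeR's test and open points did not. Flt1, Pgf and Vegfd have the widest differences between the pairs of lines, and Vegfc has the widest difference within each pair.

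Counted over single lines, 3 of the 8 genes differed between 4T1.2 and 4T1 (Vegfc higher, Flt1 and Nrp1 lower), beside 19.3% of all genes tested. Between 66cl4 and 67NR, 4 differed (Vegfb and Vegfc higher, Vegfa and Pgf lower), beside 44.7% of all genes. The comparisons across the pairs gave 7 of 8 for 4T1.2 against 66cl4 (68.8% of all genes), 7 for 4T1.2 against 67NR (67.8%), 7 for 4T1 against 66cl4 (70%) and 6 for 4T1 against 67NR (68.2%). These comparisons share libraries and are not independent of each other. The median absolute log2 fold change of the 8 genes was 0.29 for 4T1.2 against 4T1, where that of all genes was 0.21, and 0.36 for 66cl4 against 67NR, where that of all genes was 0.37.

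Among the listed genes around VEGF signalling, the widest difference was in Sema3a, one of the semaphorins and plexins, the other partners of the neuropilins. The list of semaphorins and plexins held 13 genes, all tested, and included Gipc1, which is neither. Of the 13, 5 were higher in 4T1/4T1.2, 7 were lower and only Gipc1 did not pass. The median log2 fold change was -0.99, beside -0.013 over all genes. For these and the other pathway genes, the shares over all genes tested were 38.1% higher and 38.6% lower. Sema3a, whose product is a repulsive guidance cue acting through neuropilin 1, measured 426 ± 105 CPM in 66cl4 and 423 ± 4.30 CPM in 67NR, against 0.979 ± 0.186 CPM in 4T1.2 and 0.684 ± 0.0402 CPM in 4T1 (log2 fold change -9.02, SE 0.16, edgeR adjusted p = 3.23e-11). Plxna2, which encodes a semaphorin receptor, had 4 to 29 counts in 4T1.2 and 4T1 libraries and 751 to 1251 in 66cl4 and 67NR libraries (log2 fold change -6.72, SE 0.15, edgeR adjusted p = 1.09e-10). Sema3c differed by -5.61 (SE 0.15, edgeR adjusted p = 4.49e-10), and its level of 232 ± 62.1 CPM in 66cl4 stood far above the 10.2 ± 0.671 CPM of 67NR.

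Of 22 genes that carry the signal inside the cell after VEGF receptors are engaged, 21 were tested, of which 13 were higher in 4T1/4T1.2, 6 were lower and 2 did not pass, with a median log2 fold change of 0.22 beside -0.013 over all genes. Many of these genes serve other growth factor receptors too. Hspb1, which encodes a small heat shock protein that regulates actin, had 663 to 1081 counts in 4T1.2 and 4T1 libraries and 0 to 5 in the others (log2 fold change 8.47, SE 0.36, edgeR adjusted p = 1.22e-08). Gab1, which encodes a docking protein of receptor tyrosine kinases, went the other way, with 26 to 52 counts against 1895 to 3974 (-6.42, SE 0.10, edgeR adjusted p = 1.99e-11). Plcg2, a phospholipase C gene best known from blood cells, was 4.20-fold higher in 4T1/4T1.2 (2.07, SE 0.07, edgeR adjusted p = 1.5e-09).

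Of the 9 genes of oxygen sensing, which controls Vegfa transcription in many cells, 7 were tested, 2 were higher, 2 were lower and 3 did not pass. Hif1an, which encodes the asparagine hydroxylase that inhibits HIF1A, was 4.23-fold lower in 4T1/4T1.2 (log2 fold change -2.08, SE 0.08, edgeR adjusted p = 3.79e-09). Egln3, a prolyl hydroxylase gene, was 3.10-fold higher (1.63, SE 0.09, edgeR adjusted p = 6.93e-08). Arnt, the gene of the HIF partner subunit, was 2.08-fold lower (-1.06, SE 0.07, edgeR adjusted p = 3.12e-07). Epas1 and Hif3a had at most 2 counts in any library and were not tested. Vegfa itself differed by -0.23 between the pairs of lines. Against 66cl4 alone it differed by -0.04 in both 4T1.2 and 4T1 (edgeR adjusted p = 0.717 and 0.725). The part of the oxygen sensing genes in the Vegfa level was not tested.

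VEGF-C and VEGF-D are matured by a small set of proteases and a cofactor. Of the 6 genes listed, 4 were tested, with 2 past the threshold in each direction. Ccbe1, the gene of the cofactor for VEGF-C cleavage, was 2.73-fold higher (log2 fold change 1.45, SE 0.08, edgeR adjusted p = 1.1e-07), and the protease gene Adamts14 2.93-fold higher (1.55, SE 0.12, edgeR adjusted p = 1.1e-06). Pcsk7, which encodes a proprotein convertase, was 1.37-fold lower (-0.45, SE 0.06, edgeR adjusted p = 7.93e-05). Adamts3, the protease gene best known for VEGF-C activation, had at most 1 count in a library, and Pcsk5 had 0 counts in all 8.

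The genes whose levels across the libraries were most like 7 of the tested family genes were found by Pearson's correlation of log2 CPM over the 8 libraries. For Flt1 these were Ctsc and Slc37a1 (r of 0.999 for both), for Pgf Eipr1 and Neurl3 (0.998 and 0.997), and for Vegfd Zfyve28 and Dlx3 (0.998 for both). Nrp2 was closest to Jmy and Ehbp1 (0.997 and 0.994). Vegfc was closest to Maco1 and Adgra3 (0.985 and 0.982), Vegfa to Acan and Gpat2 (0.984 and 0.981), and Vegfb to Kif26a and E530011L22Rik (0.993 and 0.977). These are the highest of the values over the 13912 genes tested, taken over the same 4 lines, so high values are common and are given as a description only.

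The family genes lie apart in the GRCm38 annotation, which also shows which counts could be shared with other genes. Flt1 spans chr5:147561604-147726438 and Kdr chr5:75932827-75979072. Vegfa lies at chr17:46016993-46032377, Vegfb at chr19:6982472-6987651, Vegfc at chr8:54077532-54186454, Vegfd at chrX:164373522-164402650 and Pgf at chr12:85166637-85177785. Flt4 lies at chr11:49609679-49652739, Nrp1 at chr8:128358591-128505476 and Nrp2 at chr1:62703317-62818692. Between 0% and 0.07% of the 75-base stretches of each gene's transcripts occurred in another gene. Vegfc, Flt1, Kdr, Nrp1 and Nrp2 overlap other annotated genes, of which only Mir1903 and 4930487H11Rik had rows in the count table, with at most 0 and 51 counts in a library. Whether the counting used strand is not given in the sources used here, so reads of overlapping genes on opposite strands may not have been separated.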

How the data were processed

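Total RNA of 4 mouse mammary tumour lines, with 2 replicates each, had been made into TruSeq RNA v2 libraries. Reads had been mapped by the authors to the mm10 genome (Rsubread), and reads per Entrez gene were tallied with featureCounts. The deposited values are raw counts per gene without normalization, and the 8 deposited files of single samples held the same values as the table of the whole series. Totals ran from 37159840 to 66269681 counts per library.

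Entrez identifiers were matched to RefSeq genes of GRCm38.p6 (25275 of 27179, 93.0%). Genes passing filterByExpr numbered 15269, and removal of predicted, ribosomal and unmatched genes, as in the study's methods, left 13912, which held 92.01% to 94.62% of the counts. edgeR 4.0.16 (R 4.3.3, limma 3.58.1) was used with TMM scaling and its legacy quasi-likelihood fit, with a prior count of 0.125, a mean for each line, all 8 libraries and no block (4 residual degrees of freedom, biological coefficient of variation 9.73%). P-values were two-sided and adjusted by Benjamini-Hochberg over all 13912 genes within each comparison, with a threshold of 0.05. Standard errors were derived from the F statistic and are approximate. Intervals cover the spread among these libraries, and the limit of 3 counts for genes at 0 covers counting error only. The code was tested on simulated data. RPKM used the gene lengths of the deposited table. Promoter sequences are from RefSeq.

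Named genes were the 10 family genes, up to 3 genes with the largest absolute log2 fold change per pathway list among those past the threshold with a mean of at least 1 CPM, and the 2 genes most correlated with each tested family gene (log2 CPM, prior count 2). The correlated genes of Nrp1 are not reported here. The genes, lists and tests were chosen with earlier results of these data known. Alternatives were DESeq2 size factors, DESeq2 1.42.0, limma-voom, the newer quasi-likelihood fit, other filters, a prior count of 2, a replicate block and leaving out each library. Kdr was left out of the endothelial list, being a family gene.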

Additional observations from a re-analysis of the deposited data

How the results depend on the processing

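Across 17 alternative settings, 922 of 952 recomputed differences of the 8 tested family genes stayed on their side of the threshold, and 9 of these, none of them called, changed sign at 2 decimals. In 22 a difference no longer passed, in 8 one newly passed, and none that had been called reversed. Of 758 recomputed differences of the 45 tested pathway genes between the pairs of lines, 718 stayed on their side, 37 no longer passed, 3 newly passed and none that had been called reversed. The pathway genes named in the text stayed past the threshold wherever they were tested, and 7 pathway genes gave no value with at least 10 counts required in every library. The differences between the pairs of lines in Flt1, Pgf, Vegfd, Vegfb, Nrp1 and Nrp2, and the differences of Vegfc within each pair, passed under all 17. Between 66cl4 and 67NR, the count of 4 family genes ranged from 2 (without 66cl4 replicate 1) to 6 (without 4T1 replicate 2) when single libraries were left out. Vegfb in that comparison was also lost with no filter on low counts (edgeR adjusted p = 0.056), and Nrp2 passed with no filter, DESeq2 and limma-voom (adjusted p = 0.046, 0.0331 and 0.0483). With a replicate block, 7 family genes differed between the pairs of lines, as without it, 5 differed between 66cl4 and 67NR, Nrp2 being added (edgeR adjusted p = 0.00708), and the pathway lists gave 38 called genes in place of 39. The block moved the count over all genes from 10677 to 10788. Deviations of same-numbered libraries correlated between -0.12 and 0.27 over the 6 pairs of lines, so the replicate numbers were not taken to pair the libraries. Depth limits Kdr and Flt4, which had at most 2 counts in a library, and 2 replicates per line limit every estimate of spread.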

Other observations

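The semaphorin genes not named above, chosen here after their values were seen, did not all follow Sema3a. Sema3b, a secreted class 3 semaphorin, was higher in 4T1/4T1.2, at 111 ± 7.82 CPM (SD, n = 2) in 4T1.2 and 113 ± 5.29 CPM in 4T1, against 4.81 ± 0.704 CPM in 66cl4 and 4.18 ± 0.853 CPM in 67NR (log2 fold change 4.63, edgeR adjusted p = 1.86e-10). Sema3f, whose product is a ligand of neuropilin 2, was higher as well (1.37, edgeR adjusted p = 3.88e-07). It measured 206 ± 30.8 CPM in 4T1.2, 168 ± 20.5 CPM in 4T1 and 121 ± 3.29 CPM in 66cl4, and 67NR was the low line at 43.3 ± 4.04 CPM. Sema3e, whose product binds plexin D1 without a neuropilin, stood at 462 ± 33.2 CPM in 66cl4 and between 129 and 143 CPM in the other lines, so its difference between the pairs of lines (-0.99, edgeR adjusted p = 6.25e-07) came with a single high line. The plexin genes Plxna1 and Plxna3 were lower in 4T1/4T1.2 (-2.06 and -1.84, edgeR adjusted p = 8.26e-07 and 2.4e-07). Plxna4 and Plxnd1 were higher (3.28 and 0.25, edgeR adjusted p = 8.56e-05 and 0.0355), Plxna4 with at most 22 counts in a library.

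Among the genes of oxygen sensing, Hif1a, the gene of the regulated HIF subunit, was higher in 4T1/4T1.2 (log2 fold change 0.90, edgeR adjusted p = 3.68e-07), at 360 ± 5.99 CPM in 4T1.2 and 381 ± 18.1 CPM in 4T1 against 189 ± 0.105 CPM in 66cl4 and 209 ± 10.3 CPM in 67NR. Vegfa was not higher in those lines, and a link between the levels of Hif1a and Vegfa was not tested. Hif1a was also chosen after its values were seen.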
